A study of Mus musculus with 18 samples.

Results

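Thap1 null and control oligodendrocyte progenitor cells (OPCs) were compared before differentiation, in 6 of the 18 RNA sequencing libraries of the series. The 6 libraries were taken by their labels: the OPC stage, with 3 Thap1 null clones named 3F, D6 and 7F and 3 control clones named D7, D3 and E8. The remaining 12 libraries hold the same clones after 2 and 4 days of differentiation and serve below only to ask whether a difference was shared. Their column names carry the letters T3 and those of the 6 OPC libraries do not, so stage and T3 cannot be told apart. All 6 cultures were mouse clonal OPC lines derived from primary neural stem cells and kept in growth medium with the mitogen PDGF-AA. Each library was 1 clone, so a clone's own history and its genotype enter a value together, and p-values measure the spread between these clones. The labels do not say by which method the clones lost Thap1. RNA abundance is given as TPM (a share of all transcripts, corrected for length) after rescaling to a common level of messenger RNA, called rescaled TPM. The deposited TPM is given beside it for Thap1 and where the direction depends on it.

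OPCs are the dividing cells of the brain and spinal cord that give rise to oligodendrocytes, the cells that wrap axons in myelin. They are held in the progenitor state by PDGF acting through the receptor PDGFRA and the ERK kinase cascade, and by inhibitors such as the ID proteins. OPCs also carry HMG-box and basic helix-loop-helix factors of the lineage such as SOX10, OLIG1 and OLIG2. THAP1 is a transcription factor that binds DNA through a zinc-dependent THAP domain, and loss-of-function mutations in it cause an inherited dystonia. The series asks what the loss of THAP1 does to oligodendrocyte development, and the OPC stage gives the state from which differentiation starts.

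The libraries of both genotypes differed in composition before any gene was compared. Protein-coding transcripts held 7.52% ± 2.15 of the deposited TPM in control OPCs and 24.3% ± 4.78 in null ones (SD, n = 3 each, two-sided exact permutation p = 0.1, the smallest that 3 against 3 allows). A group of 3 noncoding features took up 64.8% to 88.0% of the TPM in control libraries, 34.8% in null D6 and 0.789% and 1.06% in null 3F and 7F. The number of protein-coding genes above 0 was 13541 to 14334 in control and 16062 to 16518 in null, whereas the number above 1 rescaled TPM was 9919 to 10419 and 9953 to 10260 (exact permutation p = 0.7). Null libraries resembled each other more (Spearman correlations across genes of 0.949 to 0.972) than control libraries did (0.813 to 0.894). Pairs of a control and a null library had 0.810 to 0.923. Control D7 correlated more with the null libraries (0.904 to 0.923) than with control D3 (0.861) and E8 (0.894). Across genes, the level in control libraries relative to the gene's mean increased with GC content (Spearman rho 0.138 to 0.292) and that in null libraries decreased with it (-0.253 to -0.412). Genes called lower in null had a median GC content of 55.6%, genes called higher 42.1% and all tested genes 49.9%. The part of composition and GC content in the differences was not tested beyond the refits named below. Sequencing depth is unknown because TPM keeps none, so no counting error can be given.

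Control D3 stood apart from the other control clones in its gene groups. Its 30 mitosis and spindle genes summed to 85.6 rescaled TPM, against 1099 in D7, 952.6 in E8 and 942 to 1026 in the null clones. Its 25 premyelinating and myelin genes summed to 1169, against 556 and 293 in D7 and E8 and 611 to 813 in null. Values without D3 are given beside the lists whose calls or direction it changed, and for some single genes.

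**Figure D1:**
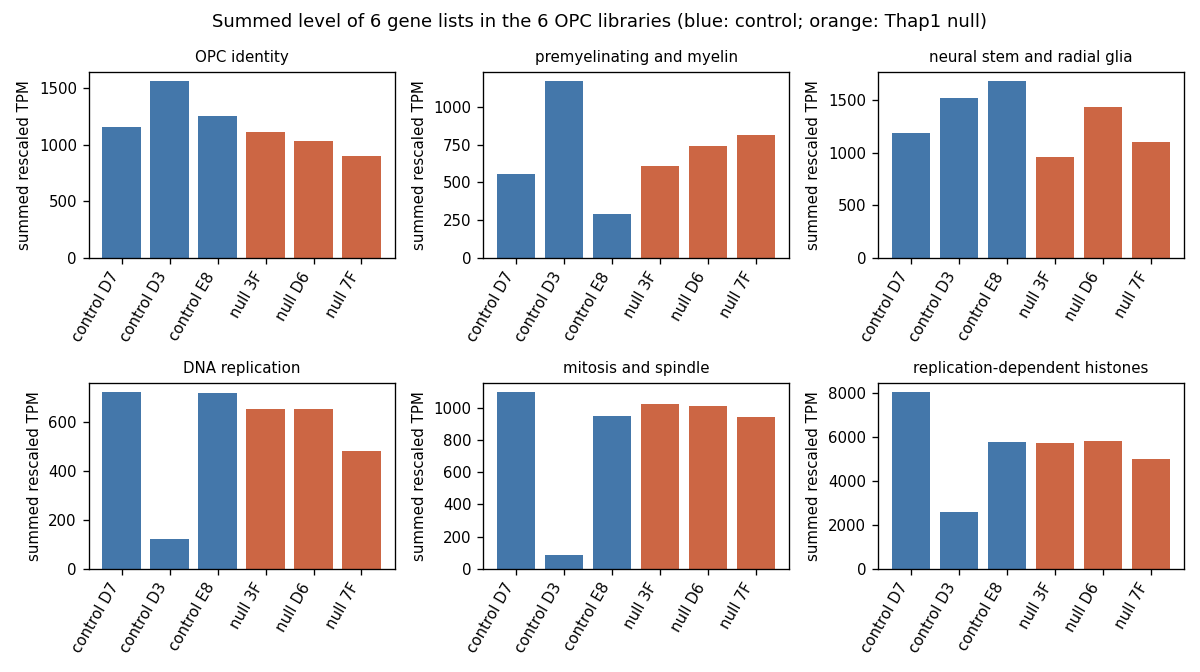
Summed rescaled TPM of 6 gene lists (one panel each, vertical axis starting at 0) in the 3 control (blue) and 3 Thap1 null (orange) OPC libraries. Control D3 holds the lowest DNA replication, mitosis and histone sums and the highest myelin sum.

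Thap1 was lower in every null clone when its protein-coding transcripts were counted. Thap1 (ENSMUSG00000037214.12, chromosome 8, 26158141 to 26164151, plus strand, GRCm38) had 4.61, 4.33 and 3.76 rescaled TPM in control D7, D3 and E8. In null 3F, D6 and 7F it had 0.523, 0.768 and 0.596. The groups did not overlap, and each null clone kept some coding signal. The mean was 6.73-fold lower in null (4.23 ± 0.434 against 0.629 ± 0.126, SD, n = 3, exact permutation p = 0.1), a log2 difference of -1.68 (SE 0.19, limma adjusted p = 0.0131). On the deposited scale control clones averaged 1.03 TPM ± 0.531 over the same transcripts and null clones 0.606 ± 0.048 (SD, n = 3, exact permutation p = 0.4), and control E8, at 0.421, lay below all null clones. Another Thap1 transcript, annotated as a retained intron and therefore not counted as coding, went the other way. It had 4.07, 0.723 and 1.58 rescaled TPM in control D7, D3 and E8 and 10.1, 11.1 and 9.51 in null 3F, D6 and 7F (2.12 ± 1.74 against 10.2 ± 0.785, SD, n = 3, exact permutation p = 0.1). These transcripts overlap in sequence, and the split between them is an estimate of the authors' quantification.

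Against this background, most genes did not pass the test. Of 10349 protein-coding genes tested in limma with Benjamini-Hochberg adjustment, 92 (0.889%) were called at an adjusted p under 0.05: 36 rose in null OPCs (0.348%) and 56 fell (0.541%). The median log2 difference of all tested genes was -0.0021, and 1956 genes had an unadjusted p under 0.05. On the deposited TPM the median was 1.59 and 8968 of 8992 called genes were higher in null, so changes are given on the rescaled values, whose scaling assumes that most genes do not change. The groups did not overlap for 2811 genes (27.2%). Among the called genes, 31 of the 36 rises and 37 of the 56 falls were at least 4-fold on the rescaled means. Without control D3, 241 of 10340 genes (2.33%) were called, 91 of the 92 among them. Without 1 of the null clones 3F, D6 or 7F, 9, 21 and 13 genes were called, and without control E8 55, so the count rests on each null clone. When the spread was taken from all 18 libraries with the clone as a replicate block, 1460 genes (14.1%) were called in OPCs, all 92 among them.

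**Figure D2:**
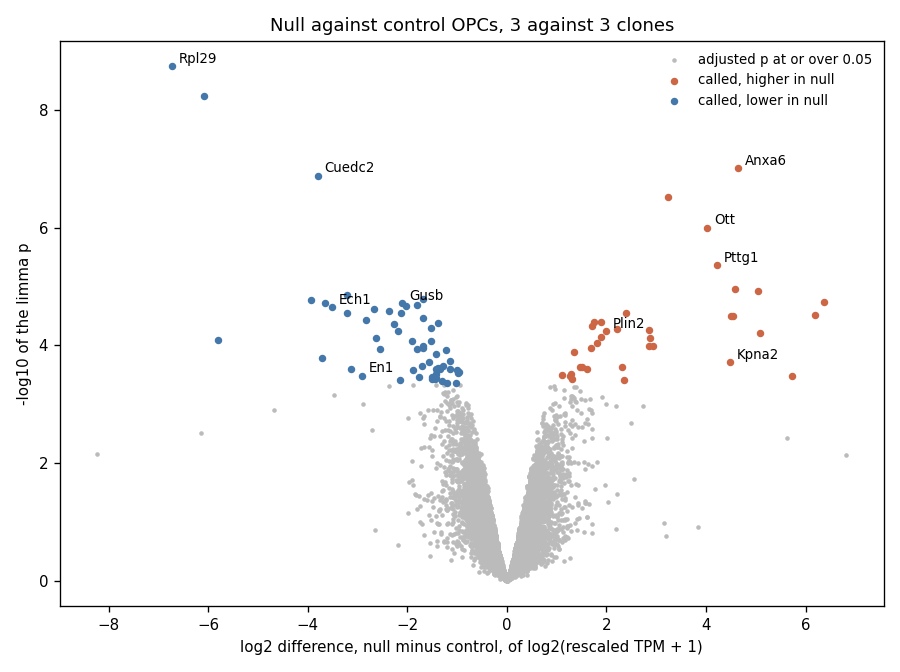
Log2 difference, null minus control OPCs, on log2(rescaled TPM + 1) (horizontal axis) against the -log10 limma p (vertical axis) for 10349 protein-coding genes, with 36 genes called higher in orange and 56 called lower in blue. Rpl29 and Cuedc2 on the left and Anxa6, Ott and Pttg1 on the right stand out among the labelled genes.

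The falls with the largest differences were those of Rpl29, Cuedc2, Txndc15 and Ech1. Rpl29, which encodes a protein of the large ribosomal subunit (chromosome 9, 106429454 to 106431568, plus strand), had 315, 267 and 264 rescaled TPM in control D7, D3 and E8 and 2.01, 1.20 and 1.87 in null 3F, D6 and 7F. All null clones were at a small fraction of all control clones. The mean was 167-fold lower (log2 difference -6.72, SE 0.18, limma adjusted p = 1.87e-05). The deposited TPM was 67.6 ± 32.9 in control and 1.76 ± 0.830 in null (SD, n = 3). Rpl29 shares 69.1% of its 31-base words with transcripts of other genes, so its value is uncertain.

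Cuedc2, a CUE-domain protein that binds ubiquitin (chromosome 19, 46329812 to 46338702, minus strand), had 39.0, 41.0 and 28.2 rescaled TPM in control and 1.53, 1.67 and 1.70 in null, in the same order of clones. It fell 22.1-fold (log2 difference -3.80, SE 0.19, limma adjusted p = 0.000341), with 9.06 ± 5.24 and 1.62 ± 0.362 on the deposited scale (SD, n = 3). Ech1, a mitochondrial and peroxisomal enzyme of fatty acid oxidation on chromosome 7, had 11.8, 18.3 and 5.79 rescaled TPM in control and 0.0412, 0.0368 and 0.0334 in null (log2 difference -3.52, SE 0.36, limma adjusted p = 0.0126). Txndc15, a thioredoxin-domain protein, had 29.3, 33.9 and 21.4 in control and 0.421, 4.36 and 0.400 in null (log2 difference -3.71, SE 0.52, limma adjusted p = 0.0295). Null D6 kept more Txndc15 than the other null clones and was still below every control clone.

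Gusb encodes beta-glucuronidase, the lysosomal enzyme that removes glucuronic acid from glycosaminoglycans. Gusb (ENSMUSG00000025534.17, chromosome 5, 129989011 to 130003049, minus strand) had 5.07, 4.36 and 4.53 rescaled TPM in control D7, D3 and E8 and 0.622, 0.163 and 0.196 in null 3F, D6 and 7F. The control clones lay within a narrow range and all null clones lay far below it. The mean was 14.2-fold lower (log2 difference -2.11, SE 0.21, limma adjusted p = 0.0126). On the deposited scale the groups had 1.10 ± 0.517 and 0.366 ± 0.362 TPM (SD, n = 3). Cln3, a lysosomal membrane protein mutated in juvenile Batten disease, had 2.73, 4.71 and 3.48 in control and 0.0743, 0.0312 and 0.0108 in null (log2 difference -2.14, SE 0.23, limma adjusted p = 0.0126).

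The sequences before the starts of Gusb and Cuedc2 are shown because these are the fallen genes with the largest differences, or with the enzyme role named above, for which RefSeq (GRCm38.p6) promoters were used. The letters TNNGGCA and GGCAA, the core of the published THAP1 recognition sequence, and AANATGGC, the core recognised by YY1, were searched on both strands and are in capitals. The Gusb stretch is chr5:130003050-130003299, minus strand, 250 bases. The Cuedc2 stretch is chr19:46338703-46338910, minus strand, 208 bases, ending before the first annotated exon.
Gusb: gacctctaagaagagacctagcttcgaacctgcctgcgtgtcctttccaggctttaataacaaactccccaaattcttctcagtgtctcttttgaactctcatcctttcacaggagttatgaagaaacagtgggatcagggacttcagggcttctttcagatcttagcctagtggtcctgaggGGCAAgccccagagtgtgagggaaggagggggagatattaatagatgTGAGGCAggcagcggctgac
Cuedc2: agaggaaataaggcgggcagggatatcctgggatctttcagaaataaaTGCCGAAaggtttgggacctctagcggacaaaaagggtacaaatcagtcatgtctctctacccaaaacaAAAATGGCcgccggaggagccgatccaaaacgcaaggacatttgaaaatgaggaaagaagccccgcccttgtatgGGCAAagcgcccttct
Gusb held 1 TNNGGCA and 1 GGCAA match, and Cuedc2 1 match of each of the 3 letter strings. In the 250 bases before the start, TNNGGCA occurred in 18 of 40 fallen genes with a promoter in the table (45.0%), 9 of 20 risen genes (45.0%) and 35.3% of 7768 tested genes. GGCAA occurred in 52.5%, 40.0% and 38.8%, and AANATGGC in 15%, 10% and 5.73%. A match describes letters only.

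Other large falls were those of En1, Tsku, Tmem100, Eda2r, Dusp23 and Ehd3. En1, a homeobox factor of the midbrain and hindbrain (chromosome 1, 120602418 to 120607992, plus strand), had 7.46, 7.46 and 19.4 rescaled TPM in control and 0.152, 1.58 and 0.142 in null (log2 difference -2.92, SE 0.46, limma adjusted p = 0.0432). With the trend on GC content and length removed, En1 was no longer called (limma adjusted p = 0.0661). On the deposited scale the control clones had 2.21 ± 0.175 TPM and the null clones 0.496 ± 0.571 (SD, n = 3). The control clones agreed on that scale only, as E8 lay above the other control clones after rescaling. Tsku, a secreted leucine-rich protein that modulates Wnt, BMP and TGF-beta signals, had 55.6, 64.3 and 74.6 in control and 8.78, 14.1 and 6.25 in null (log2 difference -2.68, SE 0.28, limma adjusted p = 0.0126). Tmem100, a BMP-responsive membrane protein, fell by 2.83 on the log2 scale (SE 0.32, limma adjusted p = 0.0138). Eda2r, a receptor of the TNF family and a p53 target, fell by 3.12 (SE 0.47, limma adjusted p = 0.0373), with 5.48, 6.68 and 22.8 rescaled TPM in control and 0.168 to 0.257 in null. Dusp23, a small phosphatase, fell by 2.26, and Ehd3, which acts in membrane recycling, by 1.81 (SE 0.26 and 0.24, limma adjusted p = 0.0143 and 0.023). Ehd3 was no longer called with the GC and length trend removed (limma adjusted p = 0.0661). Tmem223 (-3.22) and Ing4 (-2.38), a reader of methylated histones, were called as well, but share 21% and 93.0% of their 31-base words with other genes and are uncertain.

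**Figure D3:**
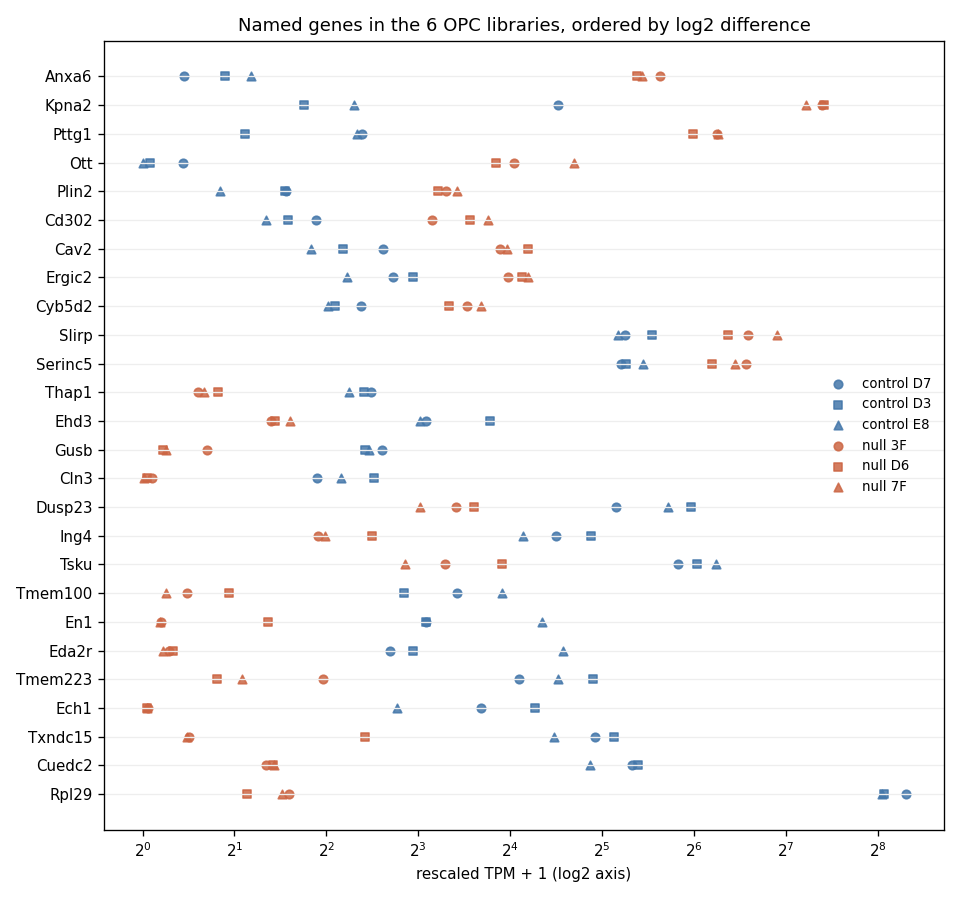
Rescaled TPM + 1 (log2 axis) of the called genes with the largest differences, and of Thap1, Gusb and Cln3, in each of the 6 OPC libraries, one row per gene (blue: control, orange: null, symbols: clones). The naming rule required that the clones of both genotypes not overlap in the rows of largest difference, so the separation there describes the choice of genes.

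A further group of falls was picked after its values were seen, for transcription factors and signalling genes. Hoxb1 (log2 difference -1.68) and Hlx (-1.53), both homeobox factors, and Pou3f4 (-0.99), a POU factor of neural cells, were lower in all 3 null clones than in any control clone. Hlx had 4.16, 4.83 and 4.98 rescaled TPM in control and 0.788, 1.29 and 0.821 in null. Socs3, the feedback inhibitor of cytokine signalling through STAT3 (-1.51), the heparin-binding growth factor Mdk (-1.69) and the nuclear receptor Rxra (-1.15), partner of the thyroid hormone and retinoic acid receptors, fell too. So did the cholesterol exporter Abcg1 (-1.70), the synaptic adhesion protein Slitrk2 (-1.52), the actin-binding protein Dbn1 (-1.70) and the circadian repressor Cry1 (-1.03). The limma adjusted p of these 10 genes ranged from 0.0126 for Dbn1 to 0.0497 for Cry1. On the deposited TPM the sign was the opposite for Pou3f4, Socs3, Rxra, Slitrk2, Dbn1 and Cry1. With the trend on GC content and length removed, Hlx, Pou3f4, Socs3, Rxra, Abcg1 and Cry1 were no longer called (limma adjusted p = 0.0502 to 0.133).

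Anxa6 rose most among the genes with a unique sequence. Anxa6 encodes a calcium-dependent membrane-binding annexin (chromosome 11, 54979108 to 55033445, minus strand) and had 0.368, 0.856 and 1.27 rescaled TPM in control D7, D3 and E8 and 48.6, 40.5 and 42.2 in null 3F, D6 and 7F. It was close to absent in control clones and at a middling level in all null clones. The mean was 52.7-fold higher in null (log2 difference 4.64, SE 0.22, limma adjusted p = 0.00034), and the deposited means were 0.173 ± 0.0911 and 44.4 ± 15.8 TPM (SD, n = 3). Anxa6 and Ott among the named rises, and Rpl29 and Cuedc2 among the named falls, were called in all 19 refits.

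Pttg1, the securin that restrains the separation of sister chromatids until anaphase (chromosome 11, 43420250 to 43426251, minus strand), had 4.22, 1.17 and 4.04 rescaled TPM in control and 75.3, 62.8 and 75.6 in null. It rose 22.6-fold (log2 difference 4.22, SE 0.34, limma adjusted p = 0.00641), and without control D3 the log2 difference was 3.81 (limma adjusted p = 0.000169). The deposited means were 0.666 ± 0.436 and 72.2 ± 24.6 TPM (SD, n = 3). It was the 1 called gene among 30 tested mitosis genes. Kpna2, an importin alpha that carries proteins into the nucleus and is abundant in dividing cells, had 21.9, 2.39 and 3.94 in control and 168, 170 and 148 in null (log2 difference 4.49, SE 0.64, limma adjusted p = 0.0333). Kpna2 shares 73.3% of its 31-base words with other genes and is uncertain.

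Further rises were those of Plin2, Cav2, Serinc5, Ergic2, Cd302, Cyb5d2 and Slirp. Plin2, the coat protein of lipid droplets, had 1.94, 1.93 and 0.788 rescaled TPM in control and 8.88, 8.28 and 9.72 in null. It rose 5.76-fold (log2 difference 2.00, SE 0.24, limma adjusted p = 0.0158). Cav2, a caveolin of membrane invaginations, rose by 1.80 (SE 0.23, limma adjusted p = 0.0206), Serinc5, a lipid scramblase of the plasma membrane, by 1.10 (SE 0.17, limma adjusted p = 0.042) and Ergic2, of the compartment between endoplasmic reticulum and Golgi, by 1.47 (SE 0.22, limma adjusted p = 0.0373). The lectin-like receptor Cd302 rose by 1.88, the haem-binding domain protein Cyb5d2 by 1.35 and Slirp, which stabilises mitochondrial messenger RNA, by 1.29 (limma adjusted p = 0.0186, 0.0243 and 0.0413). Slirp, at 37.0, 45.8 and 35.2 in control and 95.1, 81.7 and 118.6 in null, and Serinc5, at 35.8, 37.3 and 42.6 against 93.9, 72.1 and 86.4, were the most abundant of these. With the trend on GC content and length removed, Cav2, Ergic2 and Slirp had limma adjusted p = 0.0513, 0.0724 and 0.0957.

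Genes with near-identical copies made up much of the remaining rises. Of the 36 rises, 14 were predicted genes without a proper name, against 7 of the 56 falls. A run of 8 predicted genes lay within chromosome 9, 3000922 to 3038316, at the start of the assembled chromosome. Their control values ranged from 0 to 4.91 rescaled TPM and their null values from 4.12 to 277. The 8 genes share 54.6% to 94.4% of their 31-base words with other genes. A cluster on the X chromosome rose too: Ott (log2 difference 4.02, SE 0.27, limma adjusted p = 0.00172), Luzp4, Gm15097 and Gm15107 share at least 90.7% of their words and are uncertain. Of 34 rises with a transcript sequence, 17 were uncertain in this way, against 8 of 56 falls. Mpg, a DNA glycosylase of base excision repair picked after its values were seen, rose by 2.32 on the log2 scale (SE 0.34, limma adjusted p = 0.0373), from 0.144, 0.178 and 1.55 to 8.17, 5.62 and 6.05 rescaled TPM. Luzp4 and Mpg were no longer called with the GC and length trend removed.

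The OPC identity genes did not pass the test on the 6 OPC libraries in either direction: of 27 tested, 0 rose and 0 fell, with a median log2 difference of -0.27. Without control D3, 1 of the 27, Neu4, was called higher (log2 difference 1.75, limma adjusted p = 0.0441). The PDGF receptor gene Pdgfra had 110, 92.5 and 110 rescaled TPM in control and 107, 101 and 72.8 in null (log2 difference -0.17, SE 0.20, limma adjusted p = 0.684), and 24.2 ± 10.2 and 94.0 ± 35.3 TPM as deposited (SD, n = 3). Sox10 had 108, 114 and 55.9 in control and 58.5, 59.3 and 72.2 in null, and Olig2 124, 61.5 and 145 against 88.6, 76.1 and 65.7 (limma adjusted p = 0.400 and 0.494). Cspg4, which encodes the NG2 proteoglycan of the OPC surface, had 28.2, 11.7 and 26.4 in control and 12.4, 6.16 and 4.56 in null. Its log2 difference was -1.42 (SE 0.43, limma adjusted p = 0.166), and -1.80 (limma adjusted p = 0.0531) without control D3. In the 18-library fit with the clone block Cspg4 was called lower (limma adjusted p = 0.0345), as was Megf11, of the same list (log2 difference -1.29, limma adjusted p = 0.00953), 2 of 27 against 7.73% of all genes. Both genotypes therefore carried the markers of the labelled cell type. Summed over the list, control clones had 1159, 1560 and 1253 rescaled TPM and null clones 1107, 1035 and 899.5.

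Myelin genes were likewise not called. Of 18 tested, 0 rose and 0 fell, the median log2 difference was 0.37, and 13 of the 18 were above 0. Without control D3 the median was 0.83 and 16 of 18 were above 0, with 1 gene called higher. Myrf, the factor that switches on myelin genes, had 2.10, 2.48 and 0.848 in control and 8.60, 1.72 and 2.26 in null (limma adjusted p = 0.473). Mog, a late myelin gene, was under 1 rescaled TPM in all 6 libraries and was not tested. The 18-library fit with the clone block called Trf, the transferrin gene of oligodendrocytes, lower (log2 difference -1.97, limma adjusted p = 0.0191, and 0.197 with the 6 OPC libraries). In bulk RNA, a different number of cells of a type and a different amount of RNA per cell cannot be told apart.

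Genes that hold back differentiation or respond to the mitogen leaned lower without a call. Of 17 tested inhibitors of differentiation 15 had a negative log2 difference (median -0.60), and of 17 tested PDGF and ERK response genes also 15 (median -0.95), with 0 called in either list. Within these lists, Sox2 had 109, 103 and 99.4 rescaled TPM in control and 58.2, 61.4 and 65.7 in null (log2 difference -0.74, limma adjusted p = 0.0856), and the growth regulator Myc 31.6, 30.5 and 29.0 against 18.2, 11.4 and 16.7 (-0.95, limma adjusted p = 0.0899). Dusp6, the phosphatase that limits ERK, had 14.0, 8.05 and 36.9 against 4.78, 5.63 and 2.62 (-1.74, limma adjusted p = 0.161). The groups did not overlap for 4 of the 17 inhibitors and 5 of the 17 response genes, shares of the same order as the 27.2% of all tested genes. In the 18-library fit with the clone block, 2 of the 17 inhibitors and 1 of the 17 response genes were called lower, near the 7.73% of all genes called lower in that fit. Of 12 tested neural stem cell genes 10 were negative (median -0.47), again with 0 called. Without control D3, 1 of the 12, Nes, was called lower (log2 difference -1.14, limma adjusted p = 0.0311).

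The direction of the cell cycle lists depended on control D3. All 35 DNA replication and all 30 mitosis genes were tested, and Pttg1 was the 1 gene called. The median log2 differences were 0.52 and 0.76 with all clones, and -0.32 and -0.27 without D3. The 25 replication-dependent histones had medians of 0.33 and -0.29, with 0 called in either fit. Ccnd1, the D cyclin that couples mitogens to the cell cycle, had 95.2, 13.6 and 145 rescaled TPM in control and 65.7, 71.0 and 44.4 in null, a log2 difference of 0.03 (limma adjusted p = 0.99) that was -0.98 without D3 (limma adjusted p = 0.0886). The cell cycle inhibitor Cdkn1a had 4.21, 1.37 and 23.5 in control and 0.976, 0.765 and 1.31 in null (log2 difference -1.74, SE 0.76, limma adjusted p = 0.271). Its control spread came from clone E8.

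Among p53 targets, 13 of 16 tested genes had a negative log2 difference (median -0.92) and Eda2r was the 1 called. The groups did not overlap for 7 of the 16, against 27.2% of all tested genes. Sesn2, a stress-induced inhibitor of mTORC1, had 8.24, 22.7 and 26.4 rescaled TPM in control and 2.68, 2.74 and 2.12 in null (log2 difference -2.38, limma adjusted p = 0.0526). The apoptosis gene Bax had 50.4, 50.4 and 87.8 against 22.5, 33.0 and 29.9 (-1.08, limma adjusted p = 0.123). Control E8 was the highest library for most of these genes, with a list sum of 422 rescaled TPM against 201 and 208 in the other control clones and 114 to 143 in null. With the spread of all 18 libraries and the clone block, 5 of the 16 were called lower, against 7.73% of all genes.

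On the 6 OPC libraries, Gusb was the 1 call among the glycosaminoglycan-degrading lysosomal enzymes. Of 13 tested, 1 fell and 0 rose, against 0.541% and 0.348% of all tested genes. The median log2 difference was 0.11 and 8 of 13 were positive. Hexa, a subunit of the hexosaminidases, had 1.55, 17.5 and 8.52 rescaled TPM in control and 21.8, 26.8 and 26.9 in null without passing the test (log2 difference 1.77, limma adjusted p = 0.22). Of 30 other lysosomal genes, Cln3 fell and 0 rose (median 0.04). Without control D3, 1 of the 30 was called higher and 1 lower. Proteoglycan cores and enzymes of glycosaminoglycan synthesis gave 0 calls among 23 genes (median -0.05, and -0.34 without control D3). In the 18-library fit with the clone block, 1 of the 13 enzymes was called higher and 1 lower. Of the 30 other lysosomal genes 4 were called higher and 1 lower, and of the 23 proteoglycan genes 0 and 4. Over all genes that fit called 6.38% higher and 7.73% lower. Of 10 tested matrix genes Col4a1, a chain of basement membrane collagen, fell, with 6.33, 6.68 and 8.11 rescaled TPM in control and 1.05, 1.32 and 1.53 in null (log2 difference -1.81, SE 0.18, limma adjusted p = 0.0126). With the GC and length trend removed its limma adjusted p was 0.0787. Without control D3, 1 of 9 tested matrix genes was called higher and 1 lower.

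Other THAP family members and partners were not called on the 6 OPC libraries. Of 9 tested genes Thap1 fell and 0 rose. The 18-library fit with the clone block called 2 of the 9 lower, Thap1 among them, against 7.73% of all genes. Yy1, a zinc-finger transcription factor, had 12.8, 11.1 and 18 rescaled TPM in control and 5.67, 10.6 and 6.49 in null (log2 difference -0.82, limma adjusted p = 0.189). Thap11 and the cofactor gene Hcfc1 differed by 0.14 and -0.36. Of 15 tested genes mutated in inherited dystonias Thap1 was likewise the 1 called, and the torsin gene Tor1a differed by 0.07 (limma adjusted p = 0.868).

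Imprinted genes held 1 call in 15, against 0.889% of all tested genes. Without control D3 they held 2 in 14, against 2.33%. Grb10, an adaptor that restrains insulin and growth factor receptors, had 0.585, 0.277 and 0.204 rescaled TPM in control and 4.79, 3.93 and 7.49 in null (log2 difference 2.21, SE 0.26, limma adjusted p = 0.0155). Ndn, a growth suppressor of neural cells, was listed at 0 in control D7 and E8 and had 9.22 in D3 and 11.3 to 12.1 in null (limma adjusted p = 0.191 with all clones). Among 7 tested regional patterning genes, En1 was the 1 called and all 7 were negative. Zic1 and Zic2 were near 0 in control D7 and in all null clones but at 2.94 and 3.04, and 2.06 and 3.97, in control D3 and E8.

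Housekeeping lists showed 1 call on the 6 OPC libraries. Of 69 tested cytosolic ribosomal protein genes Rpl29 fell and 0 rose (median log2 difference 0.12). Without control D3, 2 of the 69 were called higher and 1 lower. The proteasome gave 0 calls in 30 (median 0.42), although the groups did not overlap for 16 of the 30, against 27.2% of all genes. Psmb5, a catalytic subunit, went against the list with 83.8, 87.9 and 45.2 rescaled TPM in control and 33.9, 28.8 and 36.7 in null (log2 difference -1.05, SE 0.28, limma adjusted p = 0.136). With all 18 libraries and the clone block Psmb5 was called lower (limma adjusted p = 0.00432), the 1 lower call of the list. That fit called 5 of the 30 proteasome genes higher, and 9 of the 69 ribosomal protein genes higher and 3 lower. Over all genes it called 6.38% higher and 7.73% lower. Psmb5 shares 74.0% of its 31-base words and is uncertain. The 12 tested genes encoded by mitochondrial DNA were all positive (median 0.82, 0 called), with sums of 10913, 16393 and 8442 rescaled TPM in control and 16963, 22302 and 26674 in null. The 18-library fit with the clone block called 8 of them higher, against 6.38% of all genes. With the GC and length trend removed the median was 0.04, with 7 positive and 5 negative. Cholesterol synthesis, glycolysis and hypoxia, stress response and nuclear-encoded respiratory chain genes had medians of -0.29, 0.16, -0.32 and 0.13 with 0 called. Without control D3 the cholesterol synthesis median was -0.69 with 1 gene called lower, and that of glycolysis and hypoxia was -0.06. In the same fit 1 of 24 tested stress response genes was called lower. Lars2, a mitochondrial leucyl-tRNA synthetase, made up 13.9% to 42.5% of the coding TPM in control libraries and at most 3.83% in null, and was not called (limma adjusted p = 0.139). Its share ranked the 6 libraries as the 3 noncoding features did. Control E8, D7 and D3 had 42.5%, 19.2% and 13.9% Lars2, with 88.0%, 74.8% and 64.8% in those features. Null D6, 7F and 3F had 3.83%, 0.0595% and 0.00433%, with 34.8%, 1.06% and 0.789%. Whether the Lars2 values measure its messenger RNA was not tested. Lars2 in OPCs was called lower with all 18 libraries and the clone block (log2 difference -8.23, limma adjusted p = 0.0125) and without null D6 (-10.88, limma adjusted p = 0.0467).

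Markers of other cell types were low or overlapped between the genotypes, except for the mesenchymal list. Microglia, mesenchymal and endothelial lists summed to at most 1.77 rescaled TPM in each library, and their defining markers Aif1, C1qa, Tyrobp, Col3a1, Pdgfrb, Cdh5 and Cldn5 were listed at 0 in all 6. The mesenchymal and mural list summed to 1.41, 1.77 and 1.56 in control and 0.817, 0.751 and 0.591 in null, so every null clone lay below every control clone, and its part in the differences was not tested. Astrocyte genes summed to 67.2, 182 and 93.4 in control and 107, 125 and 122 in null, with 0 of 9 called. Neuronal genes summed to 95.8, 109 and 172 in control and 98.2, 84.4 and 84.8 in null, with 0 of 7 called and Slc17a6 at 0 in all libraries. Y-linked genes, 4 in the list, had sums of 29.7, 10.9 and 24.9 in control and 0.186, 24.1 and 9.12 in null, and the genotypes overlapped.

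Genes of chromosome 11 as a whole were lower in 2 control clones. Over 568 genes with a mean of at least 5 rescaled TPM, the median deviation from the gene's mean was -0.33 and -0.25 (log2) in control D3 and E8, and 0.13 in control D7 and 0.15 to 0.17 in the 3 null clones. The same clones showed the same order after differentiation: relative to the mean over 18 libraries, D3 and E8 lay between -0.36 and -0.34 at 2 and 4 days, D7 at 0.02 and 0.03, and null clones between 0.08 and 0.15. Of the 36 rises 6 lay on chromosome 11 (Anxa6, Kpna2, Pttg1, Mpg, Grb10 and Cyb5d2), as did 3 of the 56 falls and 828 of the 10349 tested genes. The median log2 difference of all tested genes there was 0.27. The differences of those 6 genes ranged from 1.35 to 4.64. The genotypes did not overlap in any of the 36 rises, these 6 included, nor in any of the 56 falls. A level above control D7 therefore goes with being called and says nothing on chromosome 11. On the other autosomes the medians lay between -0.10 and 0.16 in all 6 libraries, with the highest on chromosome 19 in control E8. Whether chromosome 11 enters these 6 rises was not tested.

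**Figure D4:**
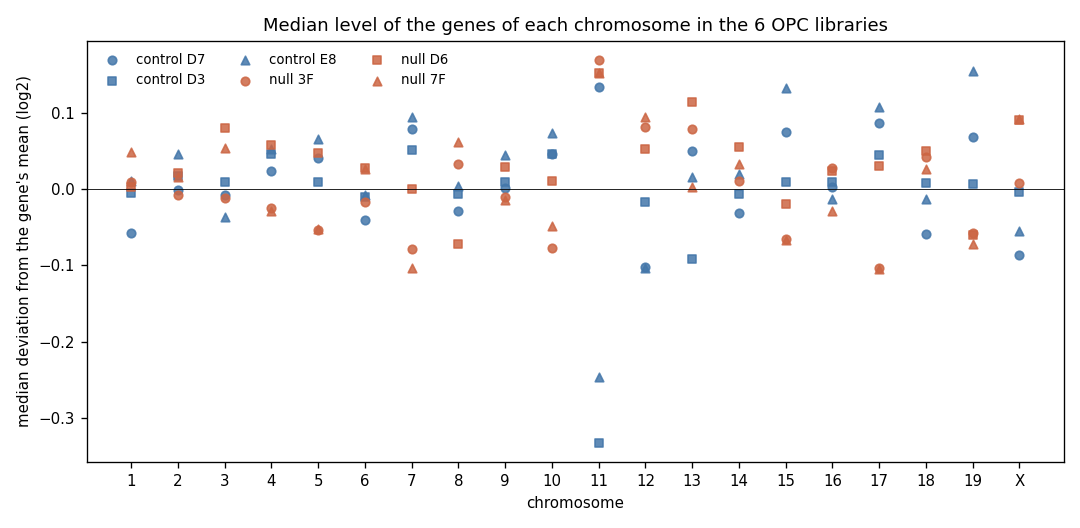
Median log2 deviation of a chromosome's genes from their mean over the 6 OPC libraries (vertical axis) by chromosome (horizontal axis), one symbol per clone, control in blue and null in orange. Control D3 (-0.33) and E8 (-0.25) lie apart on chromosome 11, while control D7 (0.13) lies beside the null clones.

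The same clones were compared after differentiation to ask which OPC differences persisted. In the 18-library fit with the clone block, 395 of 10424 genes (3.79%) were called between genotypes at 2 days and 659 (6.32%) at 4 days. Of the 92 OPC calls, 39 were called in the same direction at 2 days (42.4% of the OPC calls and 9.87% of those at 2 days), 46 at 4 days (50% and 6.98%) and 37 at both. The same clones enter each stage, so these are not independent samples. Rpl29 differed by -5.93 and -5.81 at 2 and 4 days, Gusb by -2.02 and -2.34, Cuedc2 by -2.62 and -2.36, Anxa6 by 5.05 and 4.63 and Plin2 by 2.29 and 2.46, all called at both (limma adjusted p at most 0.000358).

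Other OPC differences were larger than those of the later stages. The test of the difference between the genotype effects called 198 genes (1.9%) for OPC against 2 days and 785 (7.53%) for OPC against 4 days. Among the 92 OPC calls it called 26 and 32, with the OPC difference the larger in 25 of the 26 and in all 32. These 92 genes were chosen by their OPC difference, which enters this test too, so that choice itself favours a larger OPC difference. Pttg1 changed most: at 4 days control clones averaged 7.91 rescaled TPM ± 2.72 and null clones 2.24 ± 1.44 (SD, n = 3), and was called in the opposite direction there (log2 difference -1.50, limma adjusted p = 0.0339). En1, at 11.4 ± 6.87 against 0.624 ± 0.827 in OPCs, was at most 0.335 on average in every later group, so its OPC difference had no counterpart (0.16 and -0.13). Hlx, Socs3, Ergic2, Slirp and Serinc5 had later differences between -0.31 and 0.54, none of them called. Tsku and Dusp23 were lower in null OPCs and again at 4 days (-2.13 and -2.39, limma adjusted p = 0.0209 and 0.0104), but not at 2 days (0.60 and 0.87, limma adjusted p = 0.611 and 0.404).

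**Figure D5:**
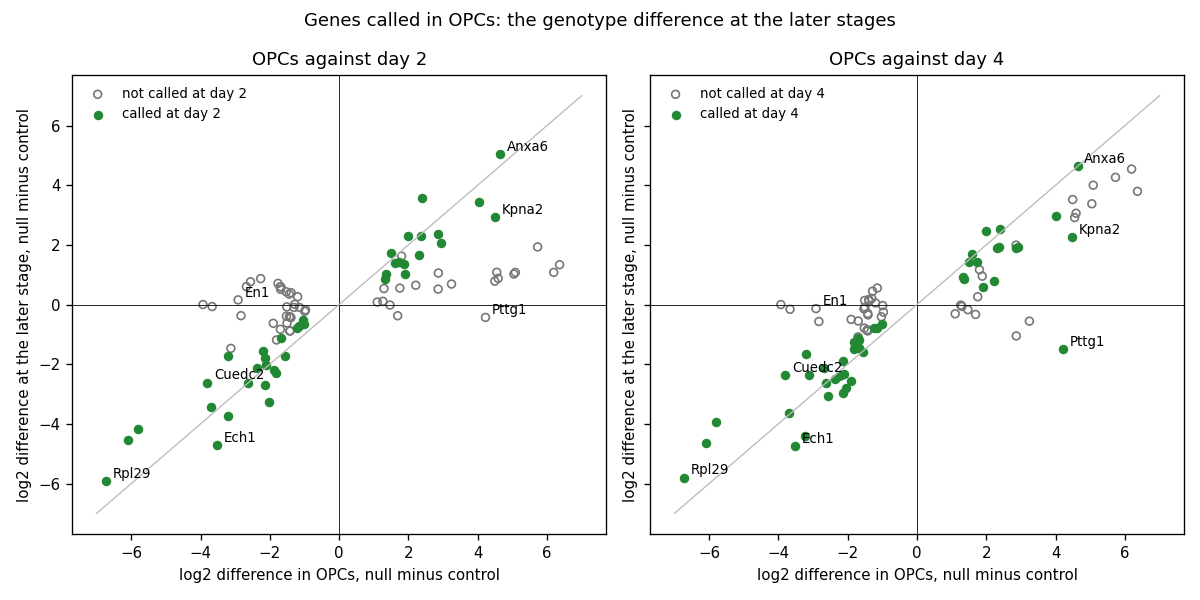
Log2 difference between null and control clones in OPCs (horizontal axis) against that at 2 days (left panel) and 4 days (right panel) of differentiation for the 91 called genes that were tested there, with genes called at the later stage filled in green and the line of equal difference in grey. Rpl29, Anxa6 and Cuedc2 keep their sign at both stages, with Rpl29 and Cuedc2 nearer 0 than in OPCs, while En1 lies near 0 and Pttg1 below 0 on the vertical axis.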

How the data were processed

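RNA was extracted as total RNA and made into stranded libraries after a step to remove ribosomal RNA, per the labels' protocols. The authors deposited 1 table of TPM, with a value per Ensembl transcript for each of the 18 libraries. STAR, Picard and the genome build mm10 are named in the submitters' processing notes. The program that computed the TPM and its strand setting are not given in the sources used here. A TPM column sums to a fixed total over all transcripts, so a few abundant features lower all others, and the depth behind a value is unknown. The precision therefore rests on the 3 clones per group.

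Protein-coding rows (47103 of 93666) were summed by gene name to 22305 genes, after 25 names turned into dates were restored. GENCODE M21 (GRCm38) gave the coordinates and held 96.5% of the transcripts. Libraries were divided by median-of-ratios factors from 6795 coding genes averaging 5 TPM or more, with a value above 0 in all 18 libraries. Factors were 0.112 to 0.322 in control and 0.731 to 1.26 in null OPC libraries.

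The test was limma 3.58.1 (R 4.3.3, eBayes with a mean trend), applied to genes averaging 1 rescaled TPM or more over the 6 OPC libraries, on log2(rescaled TPM + 1), a scale that understates the change of low genes. Benjamini-Hochberg adjustment of the p-values covered all tested genes, and a gene was called under 0.05. Single values were compared by two-sided exact permutation tests with scipy 1.17.1 in Python 3.11.15. The test script was tested on simulated data with known changes.

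The test of whether OPC and later differences differed used all 18 libraries with the clone as a random block. The pairing by clone comes from the clone names in the labels, which recur at each stage. Deviations of the same clone at different stages correlated by 0.287 on average (0.0377 to 0.648), and those of different clones by -0.141. Within OPCs alone a clone occurs once, so no block applies.

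Genes named were Thap1, a set of 13 marker and candidate genes, up to 12 rises and 12 falls with the largest differences (called, at least 5 rescaled TPM on average, no overlap between groups, predicted genes left out), and up to 2 called genes each way from each of 35 gene lists. Any other gene was picked with its values in view, whether or not the text marks it there. This holds for list members given as examples, such as Sesn2, Dusp6, Hexa and Ndn. The members and lists were chosen with earlier results of these data known. A gene sharing at least 10% of its 31-base words with transcripts of another gene is called uncertain. Alternatives were other scalings, filters, pseudocounts and fits, and leaving out each clone. Removal of a loess trend on GC content and length was added after seeing the data.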

Additional observations from a re-analysis of the deposited data

Results flagged for a closer look

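For these genes the genotype difference in OPCs itself differed from that of the same clones at 2 or 4 days of differentiation, by limma's test of the difference with 18 libraries and the clone as a block (adjusted p under 0.05). Values are the OPC log2 difference minus the later one. Among genes higher in null OPCs, Pttg1 had 4.66 at 2 days (limma adjusted p = 0.000665) and 5.72 at 4 days (limma adjusted p = 8.02e-05). Grb10, the growth factor receptor adaptor, had 1.57 and 1.42, and Ergic2 1.49 and 1.64. Differences from the 4-day value alone were found for Kpna2 (2.24), Slirp (1.36), Serinc5 (1.41), the alpha tubulin Tuba1c (1.29) and Tmlhe (1.49), an enzyme of carnitine synthesis. Tuba1c, Tmlhe and, below, Hlx, Socs3, Abcg1, Hoxb1, Mdk, Rxra, Cry1 and Fam73a were chosen after their values were seen. Kpna2 and Tuba1c share 73.3% and 63.9% of their 31-base words with other genes and are uncertain.

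Among genes lower in null OPCs, En1 had -3.07 and -2.78 at 2 and 4 days, Tmem100 -2.46 and -2.26, Hlx -1.96 and -1.39 and Socs3 -1.43 and -1.65. Rpl29 had -0.79 and -0.92, a small part of its OPC difference of -6.72. At 2 days alone Tsku had -3.28, Dusp23 -3.13, Abcg1 -2.30, Hoxb1 -2.27 and Mdk -2.20. At 4 days alone Rxra had -1.70, Cuedc2 -1.44 and Cry1 -0.62. Fam73a was the 1 OPC call in this test whose OPC difference was the smaller, by 1.24 (-2.04 in OPCs and -3.28 at 2 days). Control OPC libraries differ in composition from all later libraries (coding share of at most 9% against 20.8% to 38.8%), and the part of this in these differences was not tested. The later libraries are also the ones with T3 in their column names, which cannot be told apart from stage.

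One signal lies outside the protein-coding sums. The retained-intron transcript of Thap1 had a mean of 10.2 rescaled TPM in null OPCs, and each null OPC library lay above each control OPC library.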

How the results depend on the processing

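The 92 called genes (36 higher, 56 lower) became 1413 (633 and 780) with the spread of all 18 libraries, 1460 (660 and 800) when the clone was added as a replicate block, 282 (121 and 161) with array weights, 247 (168 and 79) with all biotypes summed, 43 (17 and 26) at a mean of at least 5 rescaled TPM, 37 (20 and 17) without a filter and 61 (28 and 33) with the GC and length trend removed. On the deposited TPM 8992 were called (8968 and 24). Leaving out 1 clone gave 9 to 241 genes, 4 to 106 higher and 3 to 135 lower. The share of calls higher in null was 39.1%, 68.0% with all biotypes, 54.1% without a filter, 76.9% without null 7F and 99.7% deposited. Calls shared with the 92 numbered 54 after removal of the trend, 18 without a filter and 49 deposited. On the deposited TPM 20 of the 92 had the opposite sign. Other scalings gave 82 to 84 genes.

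The Thap1 difference was 0.72 with all biotypes summed, where the retained-intron transcript enters, and -1.75 to -1.63 without 1 clone, no longer called without any 1 null clone. Differences with the opposite sign on the deposited TPM were Pdgfra 1.96, Cspg4 0.54, Sox10 1.61, Olig2 1.69, Psmb5 1.03, Pou3f4 0.67, Socs3 0.49, Rxra 0.47, Slitrk2 0.30, Dbn1 0.32 and Cry1 0.49. Sox10 was 0.029 with the trend removed, and Pdgfra was -0.27 to 0.0038 without 1 clone (above 0 without null 7F). Ccnd1 was -0.12 with all biotypes, -0.54 with array weights, -0.055 with factors from 6 libraries, and -0.98 to 0.68 without 1 clone (below 0 without control D3, null 3F or null D6). The cause was not tested. The difference between OPC and day 4 genotype effects was called for 785 genes, 413 with no replicate block and 8660 deposited. The difference between OPC and day 2 genotype effects was called for 198, 69 and 8808. Over all alternatives, the 44 called named genes gave 583 results with an unchanged call, 221 no longer called and 7 of opposite sign.

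Limits are that each clone is 1 library, that all control OPC libraries are filled by the same noncoding features, and that depth is unknown, so values near 0 cannot be told from missed transcripts.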

Other observations

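Several called genes outside the naming rule, chosen after their values were seen, were nearly off in one genotype. Zfp882, a zinc-finger gene, had 3.43, 9.65 and 5.38 rescaled TPM in control D7, D3 and E8 and 0.115, 0.0321 and 0.123 in null 3F, D6 and 7F, with log2 differences of -2.62 in OPCs, -2.63 at 2 days and -2.62 at 4 days. Fam73a, a protein of the mitochondrial outer membrane, had 3.27, 4.25 and 2.88 in control and 0.0718, 0.0826 and 0.0829 in null. Igsf21, an adhesion protein of the immunoglobulin family, had 9.53, 14.1 and 5.56 in control and 0.105, 0.0258 and 0.164 in null. In the other direction, Bche, which encodes butyrylcholinesterase, had 0.969, 0.724 and 0.686 in control and 4.37, 6.01 and 4.41 in null. Efcab1, an EF-hand calcium-binding protein of cilia, had 0.0909, 0.301 and 0.687 in control and 4.63, 6.05 and 7.75 in null. Their limma adjusted p in OPCs was at most 0.0186, and each was called again in the same direction at 4 days.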
